A study of Mus musculus with 10 samples.

Results

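Imprinted genes are genes of which mainly 1 parental copy is transcribed. A list of 35 of them was followed across RNA-seq libraries of mouse lens epithelium, with each gene taken by its symbol, and all 35 had a row among the 50763 genes of the count table. The libraries came from wild-type (WT) mice and from 2 transgenic families, OVE853 and OVE918, all inbred on the FVB/N background and 3 weeks of age. Homozygous transgenic mice of both families carry a human TGF-β1 that is secreted in a constitutively active form and is driven by the murine αA-crystallin promoter, which is used by lens cells. The groups held 3 (WT), 3 (OVE853) and 4 (OVE918) libraries. Each library was a pool of whole epithelial explants from up to 9 mice (WT and OVE853) or up to 7 mice (OVE918), of both sexes, and the transgenic explants held anterior subcapsular plaques. Replicates are therefore pools, no litter or animal can be followed between libraries, and each family is 1 line with its own transgene insertion.

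Imprinted genes lie in clusters in which a stretch of DNA, the imprinting control region, carries methylation from only 1 parent and sets which genes of the cluster are on. Many clusters pair a protein-coding growth regulator with a long noncoding RNA from the opposite parental copy, as in Igf2 with H19 or Igf2r with Airn. Most imprinted genes are highest in the fetus and placenta and fall after birth, and several act on growth, insulin-like growth factor signalling and metabolism. By textbook assignment, 11 of the 35 genes are expressed from the maternal copy, 22 from the paternal copy, and Grb10 and Gnas from either copy depending on tissue or transcript. The reads of inbred mice do not tell the parental copies apart, so that every value below is the sum of both.

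Levels are given as CPM, the share of a library's counts scaled with TMM factors, and comparisons between genes as FPKM, which also divides by exon length. Total counts per library lay between 24073311 and 31908525, and Tgfb1 lay between 50.6 and 61.7 CPM in WT, between 339 and 361 CPM in OVE853 and between 715 and 881 CPM in OVE918. Per the paper, Tgfb1 values hold reads of the mouse gene together with reads of the human transgene that map to it. A minimum of 2 FPKM in 5 of the 10 libraries left 11097 genes for testing, 21 of the 35 imprinted genes among them. All libraries entered 1 fit of edgeR's quasi-likelihood test. A gene was called where its FDR (Benjamini-Hochberg over all genes tested) did not exceed 0.05 and its level changed by at least 1 on the log2 scale in either direction. H19 and Zim1 reached 2 FPKM only in transgenic libraries and so could enter the test only by being high there. Grb10 reached it in no OVE918 library and Nap1l5 in no OVE853 library, so that each entered only through the other groups. Their lower values in those lines are therefore partly tied to the filter. All 6 lens epithelium markers of the list used were tested and summed to 27780 to 46098 CPM in every library. Cryab alone gave 25276 to 42891 CPM, and Lim2 was also on the list of lens fiber markers. The sum thus mostly follows 1 gene and does not measure the share of epithelium. WT replicate 3 stood apart: 12 retinal neuron markers summed to 1199 CPM in it, against 176 and 177 CPM in the other WT libraries, 49.6 to 113 CPM in OVE853 and 44.0 to 196 CPM in OVE918, with none of the 12 at 0 in every library. The 5 cornea markers, of which Kera was at 0 in every library, summed to 237 to 1619 CPM in WT and 26.6 to 92.9 CPM in the transgenic libraries. That sum was almost all Aldh3a1, with 236 to 1611 CPM in WT and 26.3 to 92.4 CPM in the transgenic libraries. Krt12, Krt5 and Krt14 had at most 4.91 CPM in any library. The 5 Müller glia markers summed to 1560 to 4010 CPM in WT and 410 to 1021 CPM in the transgenic libraries. Most of that sum was Apoe, with 1152 to 2559 CPM in WT and 305 to 803 CPM in the transgenic libraries. Glul and Rlbp1 were also below WT in every transgenic library. Kcnj10 and Slc1a3 in OVE918 replicate 1 (6.72 and 39.3 CPM) lay within the WT range. The 6 markers of non-pigmented ciliary epithelium summed to 388 to 462 CPM in WT, 281 to 319 CPM in OVE853 and 203 to 264 CPM in OVE918. These markers did not move together. Cpxm1 had 94.6 to 213 CPM in WT and 160 to 251 CPM in the transgenic libraries. Best2 had 31.0 to 51.4 CPM in WT and 0.877 to 9.15 CPM in the transgenic libraries. Wfdc1, Slc6a13 and Aqp4 were also below WT in every transgenic library, and Opn5 was near 0 throughout. The 8 lens fiber markers had median sums of 15517 CPM in WT, 11590 CPM in OVE853 and 35516 CPM in OVE918. The 5 fibroblast and pericyte markers, with Lum and Col3a1 near 0, summed to 356 to 568 CPM in WT, 693 to 719 CPM in OVE853 and 425 to 617 CPM in OVE918. Pdgfra alone had 252 to 446 CPM in WT, 547 to 607 CPM in OVE853 and 327 to 510 CPM in OVE918. That sum thus mostly follows 1 gene and does not measure the share of fibroblasts or pericytes. The part of these cells in the values below was not tested, and in such bulk samples fewer cells of a type and less RNA per cell cannot be told apart.

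In OVE853, 9 of the 21 tested genes were called against WT, where 4.42% of all genes tested were called. Of these, 7 were higher (H19, Igf2r, Airn, Meg3, Rian, Peg3 and Zim1) and 2 were lower (Slc22a18 and Nap1l5), beside 2.51% of all genes called higher and 1.91% called lower. In OVE918 the count was also 9 of 21, beside 5.6% of all genes. There 6 were higher (H19, Igf2r, Meg3, Rian, Peg3 and Zim1) and 3 were lower (Dio3, Grb10 and Nap1l5), beside 2.58% and 3.02% of all genes. Both comparisons used the same WT libraries, so that their counts are not independent. With WT replicate 3 left out and the same genes tested, the counts were again 9 and 9, but not of the same genes: in OVE853, Igf2 and Mest entered while Airn and Slc22a18 left, and in OVE918, Mest entered while Nap1l5 left. Without OVE853 replicate 1 the count in OVE853 fell to 5, as Meg3, Rian, Slc22a18 and Nap1l5 missed the FDR limit. Over the 21 genes the median log2 fold change lay at 0.19 for OVE853 and -0.21 for OVE918, beside -0.01 and 0.01 over all genes. Counted by groups without overlap, 14 of 21 genes in OVE853 (45.4% of all genes) and 15 of 21 in OVE918 (27.2% of all genes) had every transgenic library on 1 side of every WT library. Directly between the lines, Dio3 was the 1 gene called of 21, and it was lower in OVE918, beside 0.487% of all genes called and 0.415% called lower.

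**Figure D1:**
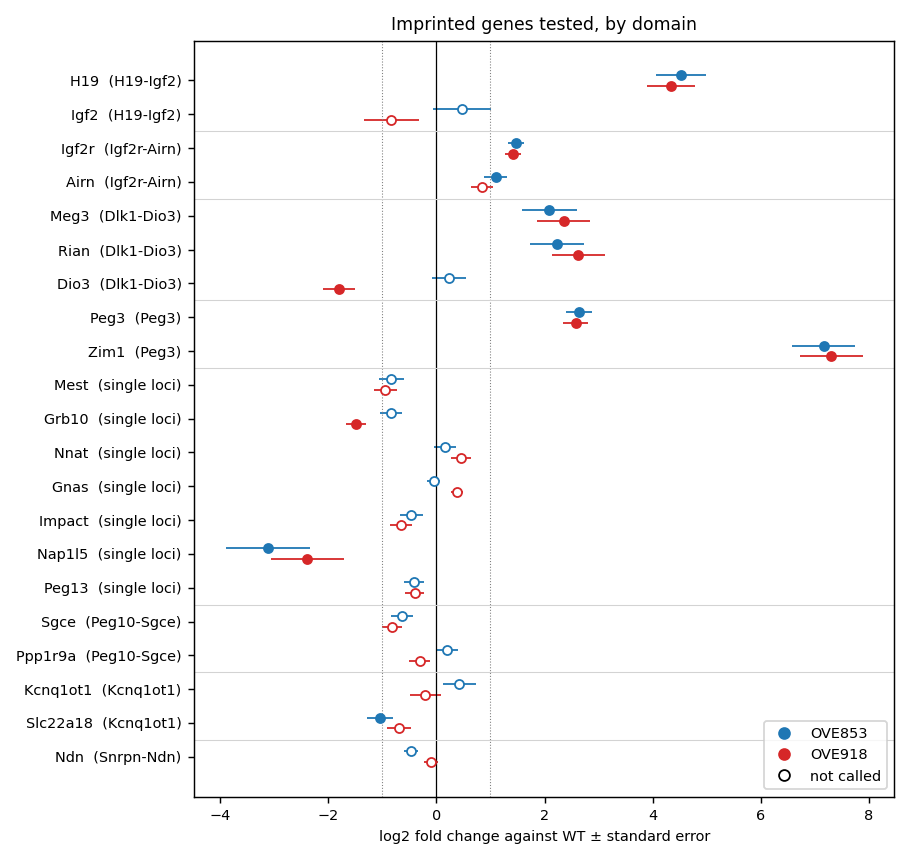
Log2 fold change against WT with its standard error (horizontal axis) for the 21 imprinted genes tested, ordered by cluster, with OVE853 in blue and OVE918 in red. Filled points are called, open points are not, dotted lines mark log2 fold changes of -1 and 1, and Zim1 stands farthest to the right at 7.16 and 7.30.

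The Peg3 cluster on chromosome 7 held the largest fold change of the 21 genes tested. Zim1, a zinc finger gene with maternal expression, lies at chr7:6674268-6699500 on the minus strand. Its level was 0.447, 0.462 and 0.0701 CPM in WT replicates 1 to 3, from 10, 12 and 2 counts. In OVE853 it was 38.9, 52.9 and 45.5 CPM, and in OVE918 it was 42.7, 77.7, 57.0 and 23.9 CPM. Every transgenic library lay far above every WT library, and the WT values rest on few counts. Fold changes on the log2 scale were 7.16 in OVE853 (standard error 0.59, FDR = 8.37e-05) and 7.30 in OVE918 (standard error 0.58, FDR = 3.28e-05). The direct difference between the lines was 0.14 (standard error 0.36, FDR = 0.835).

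Peg3, a paternally expressed gene for a large zinc finger protein, lies next to Zim1 at chr7:6706882-6733468. WT libraries had 74.1, 60.6 and 49.2 CPM. OVE853 libraries had 365, 406 and 368 CPM, and OVE918 libraries had 312, 490, 410 and 251 CPM. The groups did not overlap, and Peg3 rose 6.19-fold in OVE853 (log2 2.63, standard error 0.24, FDR = 8.33e-05) and 5.97-fold in OVE918 (log2 2.58, standard error 0.23, FDR = 3.53e-05). OVE918 replicate 4 was the lowest transgenic library for both Peg3 and Zim1, and it had the highest sum of lens fiber markers of all libraries, 45232 CPM. In OVE853, replicate 2 had the highest such sum of its line, 27382 CPM, and also the highest Peg3 and Zim1 of that line. A link of these levels to fiber content was not tested. Leaving out OVE918 replicate 4 gave log2 fold changes of 2.72 for Peg3 and 7.53 for Zim1 in OVE918.

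Usp29, a ubiquitin peptidase gene transcribed away from Peg3 from nearly the same start, stayed under the FPKM minimum. Its CPM was 1.39, 3.08 and 7.82 in WT, 8.34, 8.67 and 8.07 in OVE853, and 9.55, 13.1, 11.4 and 11.3 in OVE918. WT replicate 3 came close to the transgenic libraries, although no group overlapped WT. With edgeR's filterByExpr in place of the FPKM rule, which tests lower genes, it differed from WT by 1.04 on the log2 scale in OVE853 (FDR = 0.139) and by 1.49 in OVE918 (FDR = 0.0394). In the same fit with WT replicate 3 left out, these were 1.85 (FDR = 0.0015) and 2.33 (FDR = 0.000162).

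Within a library, scaling cancels in the ratio of counts. Zim1 counts were 0.603%, 0.762% and 0.142% of Peg3 counts in WT. They were 10.7% to 13% in OVE853 and 9.54% to 15.9% in OVE918. The adjacent genes of opposite parental copies thus rose by unequal factors, from counts of 10, 12 and 2 for Zim1 in WT.

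The promoter windows of both genes, 250 bases before to 50 after the start, are printed to show the sequence at the starts of this pair of neighbouring genes. They come from the RefSeq table of GRCm38.p6 and were placed by exact match on GRCm39, at chr7:6733369-6733668 (Peg3) and chr7:6699382-6699681 (Zim1), both on the minus strand. Capitals mark CpG, the dinucleotide at which imprints are written.
Peg3 promoter: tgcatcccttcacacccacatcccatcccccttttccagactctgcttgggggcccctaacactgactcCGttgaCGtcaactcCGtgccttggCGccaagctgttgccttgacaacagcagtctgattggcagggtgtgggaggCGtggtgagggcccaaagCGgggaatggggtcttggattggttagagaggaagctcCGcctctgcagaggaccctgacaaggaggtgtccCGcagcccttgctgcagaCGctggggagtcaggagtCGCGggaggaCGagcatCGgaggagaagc
Zim1 promoter: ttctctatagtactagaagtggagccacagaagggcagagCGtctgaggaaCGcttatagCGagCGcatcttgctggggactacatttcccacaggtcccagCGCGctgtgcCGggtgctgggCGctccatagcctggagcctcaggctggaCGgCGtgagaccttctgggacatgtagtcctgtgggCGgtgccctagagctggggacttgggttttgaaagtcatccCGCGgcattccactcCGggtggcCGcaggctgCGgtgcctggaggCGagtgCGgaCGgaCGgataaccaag
The windows held 13 and 20 CpG, where 62.1% and 73.5% of the 32851 windows in the table had fewer, with a median of 7. The Peg3 window shares 263 bases with that of Usp29, read from the other strand. Of the letters searched on both strands, TGCCGC, bound by the imprint maintenance factor ZFP57 where methylated, occurred 1 time in the Zim1 window and not in that of Peg3, and 11.6% of all windows held it. GCCATNTT, bound by YY1, occurred in neither, beside 6.05% of all windows. GTCTAGAC, the palindrome bound by SMAD proteins, occurred in none of the 45 windows found for 29 of the 35 genes, beside 0.213% of all windows. H19, Impact, Peg10, Peg13, Rtl1 and Sgce had no window.

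**Figure D2:**
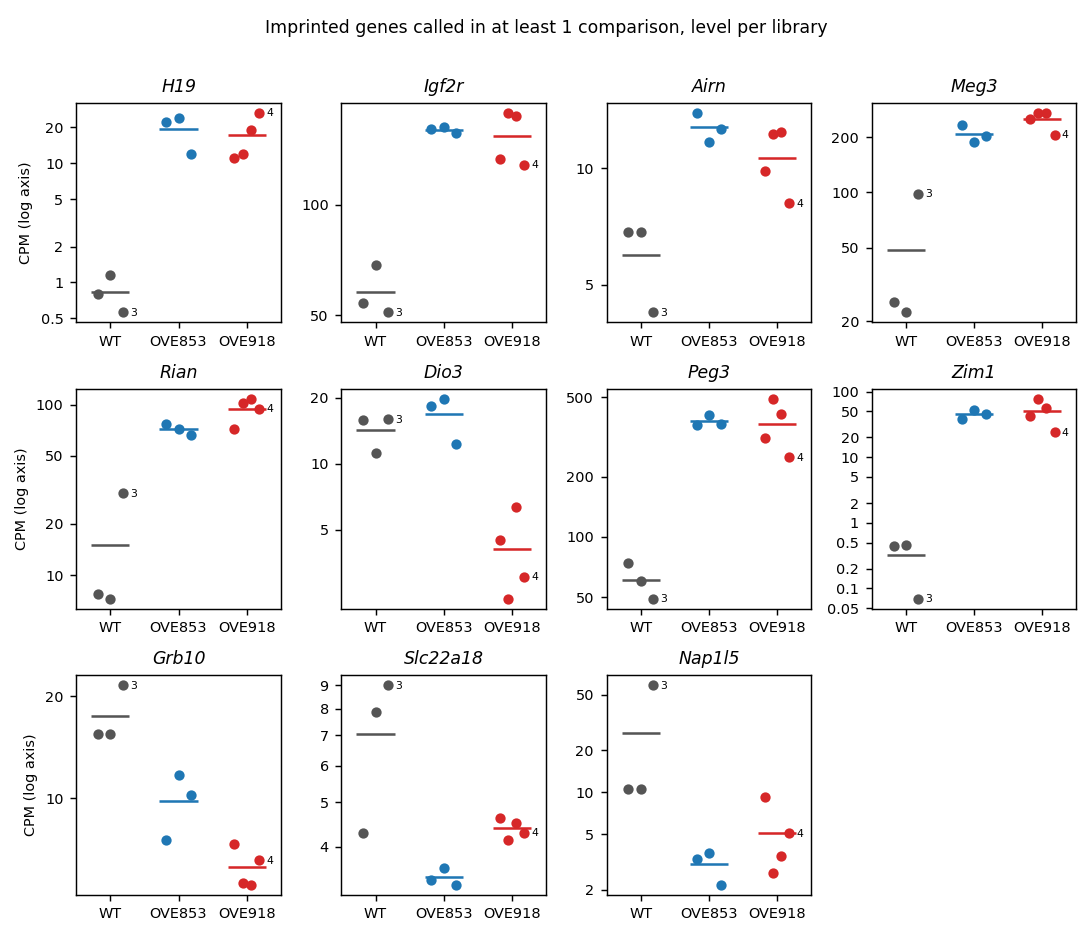
CPM on a log axis in each library (points) with the group mean (line) for the 11 imprinted genes called in at least 1 comparison. WT replicate 3 and OVE918 replicate 4 are numbered, and WT replicate 3 is the highest WT library for Meg3, Rian and Nap1l5, among others.

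H19, a maternally expressed noncoding RNA at chr7:142129262-142133957, was nearly silent in WT. It had 0.805, 1.15 and 0.561 CPM in WT, from 18, 30 and 16 counts. In OVE853 it had 22.3, 23.8 and 11.9 CPM, and in OVE918 it had 11.1, 11.9, 19 and 26.5 CPM. The lowest transgenic library was above every WT library, and the log2 fold change was 4.53 in OVE853 (standard error 0.46, FDR = 0.000172) and 4.35 in OVE918 (standard error 0.45, FDR = 9.94e-05), 23.0-fold and 20.3-fold. Lines did not separate (difference -0.18, standard error 0.33, FDR = 0.760).

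Igf2, the paternally expressed growth factor gene of the same cluster, was not called. Its CPM was 6.84, 10.3 and 35.2 in WT, 27.3, 29.2 and 16.4 in OVE853, and 7.28, 9.39, 12.6 and 10.0 in OVE918. WT replicate 3, the library with the most retinal neuron marker RNA, exceeded every other library, so that WT overlapped OVE853. OVE918 overlapped WT replicates 1 and 2 as well. Against WT the log2 difference was 0.47 in OVE853 (standard error 0.53, FDR = 0.554) and -0.83 in OVE918 (standard error 0.50, FDR = 0.289). Without WT replicate 3 and with the same genes tested, the OVE853 value was 1.5 (FDR = 0.00778) and the OVE918 value was 0.20 (FDR = 0.710), and the lines then differed by -1.31 (FDR = 0.0200). That single library thus decided both the call in OVE853 and the sign in OVE918. The count of H19 was 11.8%, 11.2% and 1.59% of that of Igf2 in WT, 72.7% to 81.7% in OVE853 and 127% to 265% in OVE918.

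An exon of H19 holds the hairpin of miR-675, whose mature strands are shown because H19 is the transcript it is cut from. Capitals mark the seed, bases 2 to 8, in the sequences from RefSeq.
miR-675-5p: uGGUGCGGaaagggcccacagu
miR-675-3p: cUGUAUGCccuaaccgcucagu
These lie at chr7:142130849-142130870 and chr7:142130815-142130836 on GRCm39. The row of Mir675 was at 0 counts in all libraries, which were made for mRNA and counted by gene, so that the rise of H19 is measured on the long RNA and no level of the mature miRNA is given by these libraries.

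In the Igf2r cluster of chromosome 17 both members of an antisense pair were higher. Igf2r encodes the receptor that takes up IGF2 for degradation, sorts mannose 6-phosphate enzymes to lysosomes and also binds latent TGF-β. It lies at chr17:12901293-12988614 on the minus strand and had 54.2, 68.6 and 50.9 CPM in WT. Its level was 161, 163 and 157 CPM in OVE853 and 134, 178, 174 and 129 CPM in OVE918. No transgenic library came near WT, and the rise was 2.77-fold in OVE853 (log2 1.47, standard error 0.15, FDR = 0.000172) and 2.66-fold in OVE918 (log2 1.41, standard error 0.15, FDR = 8.53e-05).

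Airn, the noncoding RNA that silences the paternal Igf2r, starts inside Igf2r and runs on the plus strand at chr17:12960198-13079299. Reads were assigned by strand, and the exons of the pair do not overlap. Airn had 6.84, 6.85 and 4.24 CPM in WT, 13.9, 11.6 and 12.6 CPM in OVE853, and 9.81, 12.2, 12.4 and 8.12 CPM in OVE918. Its log2 fold change was 1.09 in OVE853 (standard error 0.21, FDR = 0.00743), which was called, and 0.84 in OVE918 (standard error 0.20, FDR = 0.0154), under the fold minimum. With the same genes tested, leaving out WT replicate 3 brought the OVE853 value to 0.89 (FDR = 0.0127), also under the minimum. Airn counts were 8.33% to 12.6% of Igf2r counts in WT, 7.13% to 8.65% in OVE853 and 6.32% to 7.34% in OVE918. The exon length of Airn rests on few annotated transcripts, as it does for the other long noncoding RNAs here, so that its FPKM is uncertain while its fold change is not affected.

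The promoter window of Igf2r, at chr17:12988544-12988843 on the minus strand, is the most CpG-rich of those printed. It held 34 CpG (capitals), and 92.3% of all windows had fewer.
Igf2r promoter: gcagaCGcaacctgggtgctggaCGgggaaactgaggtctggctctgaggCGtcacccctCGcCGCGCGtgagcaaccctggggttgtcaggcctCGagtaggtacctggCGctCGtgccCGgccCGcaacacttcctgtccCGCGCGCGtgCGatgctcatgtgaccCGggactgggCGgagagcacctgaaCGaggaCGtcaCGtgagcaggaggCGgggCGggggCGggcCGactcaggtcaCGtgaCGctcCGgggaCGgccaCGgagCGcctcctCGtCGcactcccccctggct
None of the 3 motifs searched occurred in it.

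Genes around this pair were examined because imprinted clusters can extend to neighbours. Among 96 tested genes that start within 500 kb of a listed gene, 3 were called higher in each line, a share near that of all genes (2.51% and 2.58%), and all 3 lay in the Igf2r cluster. Unc93a, a gene for a membrane protein whose start is 362 kb from that of Igf2r, had a level of 1.38 ± 0.577 CPM in the WT libraries (SD, n = 3), of 15.0 ± 1.53 CPM in OVE853 (n = 3) and of 10.6 ± 1.24 CPM in OVE918 (n = 4), with log2 fold changes of 3.45 (FDR = 2.53e-05) and 2.95 (FDR = 2.6e-05). Gm36277, a noncoding RNA that starts beside Unc93a on the other strand, had log2 fold changes of 3.45 (FDR = 0.00486) and 3.47 (FDR = 0.0024). Gm16574, a processed pseudogene inside the span of Airn and on its strand, had log2 fold changes of 1.79 (FDR = 0.0082) and 1.35 (FDR = 0.0194), although its OVE918 libraries overlapped WT. Between Igf2r and Unc93a, Tcp1, Mrpl18, Acat2, Wtap and Sod2 had log2 fold changes from -0.32 to 0.16 in OVE853 and from -0.50 to 0.48 in OVE918. In the same interval the noncoding Gm49958 had log2 fold changes of 0.34 (FDR = 0.845) and 2.32 (FDR = 0.127), and Gm26130 of 0.56 and 0.53. These 7 genes were not called. Of the other 85 neighbours, in the remaining clusters, Dio3os was the 1 called, lower in OVE918.

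**Figure D3:**
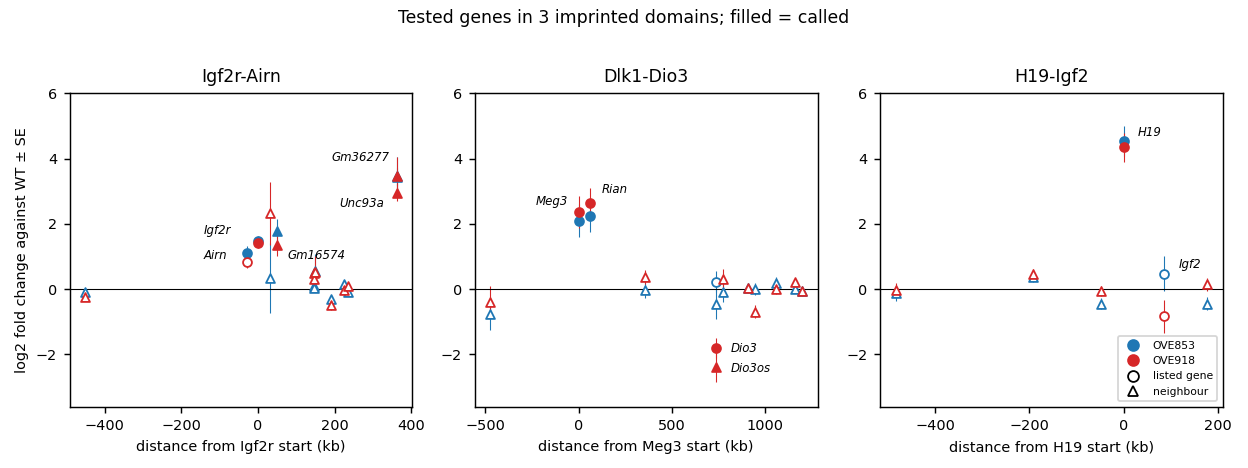
Log2 fold change against WT with its standard error (vertical axis) by distance in kb from the start of Igf2r, Meg3 or H19 (horizontal axis) for the tested genes of 3 clusters. Circles are listed genes, triangles are neighbours and filled symbols are called, and the high points away from the listed genes are Unc93a and Gm36277 at 362 kb from Igf2r.

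In the Dlk1-Dio3 cluster of chromosome 12, the maternally expressed noncoding RNAs rose while the enzyme gene at the far end did not. Meg3, at chr12:109506877-109538165, had 25.4, 22.3 and 98.3 CPM in WT, 232, 189 and 202 CPM in OVE853, and 251, 269, 271 and 206 CPM in OVE918. All transgenic libraries were above WT replicate 3 and far above the other WT libraries. The log2 fold change was 2.09 in OVE853 (standard error 0.50, FDR = 0.0254) and 2.35 in OVE918 (standard error 0.49, FDR = 0.0100). Without WT replicate 3, the library in which retinal neuron markers summed to 1199 CPM, it was 3.12 (FDR = 3.13e-06) and 3.38 (FDR = 1.73e-06). Leaving out any 1 OVE853 library moved the OVE853 FDR to between 0.0529 and 0.0724, past the limit, with log2 fold changes of 2.01 to 2.16.

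Rian, the next noncoding RNA downstream and a host of snoRNAs, also had its highest WT level in replicate 3. It had 7.78, 7.31 and 30.3 CPM in WT, 76.9, 71.4 and 65.9 CPM in OVE853, and 72.3, 101, 108 and 94.3 CPM in OVE918. Its log2 fold change was 2.23 in OVE853 (standard error 0.49, FDR = 0.0177) and 2.63 in OVE918 (standard error 0.48, FDR = 0.00541), and without WT replicate 3 it was 3.24 (FDR = 3.64e-06) and 3.64 (FDR = 1.84e-06). Without OVE853 replicate 1 the OVE853 value was 2.18 (FDR = 0.0557), past the limit. Rian counts were 30.6% to 32.8% of Meg3 counts in WT, WT replicate 3 included, and 28.8% to 45.8% in the transgenic libraries. Mirg, the third of these transcripts, had 5, 9 and 32 counts in WT and 26 to 87 counts in the transgenic libraries, or 0.224, 0.346 and 1.12 CPM against 1.93 to 2.93 CPM in OVE853 and 1.11 to 3.09 CPM in OVE918. It was tested only with filterByExpr, where it had log2 fold changes of 2.13 (FDR = 0.0284) and 1.86 (FDR = 0.0326), and of 3.06 (FDR = 0.00277) and 2.81 (FDR = 0.00242) without WT replicate 3. With so few counts in WT, Mirg reached that test through transgenic libraries, so that these values are a description.

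The first promoter window of Meg3, at chr12:109506629-109506928 on the plus strand, held 13 CpG and 1 TGCCGC, and neither of the other motifs. Its capitals mark CpG, as above.
Meg3 promoter: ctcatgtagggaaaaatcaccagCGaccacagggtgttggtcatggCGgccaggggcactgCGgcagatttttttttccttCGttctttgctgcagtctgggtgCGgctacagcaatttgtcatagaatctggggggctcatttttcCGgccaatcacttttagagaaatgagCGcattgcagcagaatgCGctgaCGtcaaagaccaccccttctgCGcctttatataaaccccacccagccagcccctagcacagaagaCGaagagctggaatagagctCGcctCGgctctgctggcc
The noncoding RNAs of the cluster are read through a long array of miRNA hairpins, of which GENCODE places 67 between Dlk1 and Dio3, 59 of them on the strand of Meg3. Of these, 61 had a row in the count table, 40 were at 0 counts in all libraries, and no row exceeded 8 counts in a library. Summed over the 61 rows, there were 3, 4 and 7 counts in WT, 20, 16 and 19 in OVE853, and 5, 21, 17 and 6 in OVE918. The mature strands of 1 hairpin from each of Meg3 (miR-770), Rian (miR-370) and Mirg (miR-410), and of miR-127, which lies on the strand opposite to Rtl1 within its exon, are shown with their seeds in capitals, to name small RNAs of the cluster.
miR-770-5p: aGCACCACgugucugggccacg
miR-770-3p: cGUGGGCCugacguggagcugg
miR-370-5p: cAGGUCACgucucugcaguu
miR-370-3p: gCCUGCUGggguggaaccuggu
miR-410-5p: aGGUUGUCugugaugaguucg
miR-410-3p: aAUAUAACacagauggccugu
miR-127-5p: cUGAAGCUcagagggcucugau
miR-127-3p: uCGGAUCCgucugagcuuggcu
Among the 113 mature names of the cluster in the RefSeq table there were 104 seeds, of which 9 were shared, each by 2 names. No 2 of the 8 strands printed share a seed, and their levels are not measured by these libraries.

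The paternally expressed genes of this cluster differed from one another. Dlk1, which encodes a membrane protein related to Notch ligands, had 0, 0 and 2 counts in WT, 19, 10 and 11 in OVE853, and 7, 46, 53 and 86 in OVE918. Scaled for library size, the ratio of its counts to WT was 17.2 in OVE853 (95% counting interval 4.46 to 147) and 74.7 in OVE918 (20.4 to 621), at levels of 0.440 and 1.99 CPM. Rtl1, a gene derived from a retrotransposon and needed in the placenta, had 0 counts in each WT library, 13, 2 and 10 in OVE853, and 18, 31, 30 and 23 in OVE918. Set against a floor of 3 counts in each WT library, it was at least 2.28-fold higher in OVE853 and at least 8.67-fold higher in OVE918. These intervals and floors cover counting error only. With filterByExpr, Dlk1 had an FDR of 0.0538 in OVE853 and of 0.0033 in OVE918, and Rtl1 of 0.0136 and 0.000968. With 0 to 2 counts in each WT library, both could enter that test only by being high in transgenic libraries, so that these values are a description.

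Dio3 encodes the deiodinase that inactivates thyroid hormone and lies 739 kb from Meg3, at chr12:110245502-110247531. It had 15.8, 11.2 and 16 CPM in WT, 18.3, 19.8 and 12.3 CPM in OVE853, and 4.50, 2.42, 6.35 and 3.04 CPM in OVE918. All OVE918 libraries lay below all libraries of the other groups, while OVE853 overlapped WT. The log2 fold change was 0.23 in OVE853 (standard error 0.31, FDR = 0.619) and -1.81 in OVE918 (standard error 0.30, FDR = 0.00186). Tested directly, OVE918 was below OVE853 by 2.04 on the log2 scale, a value of -2.04 (standard error 0.30, FDR = 0.0190). That call was lost without OVE853 replicate 1 (-1.97, FDR = 0.0857), OVE853 replicate 2 (-1.90, FDR = 0.0729), OVE918 replicate 1 (-2.08, FDR = 0.0605) or OVE918 replicate 4 (-1.92, FDR = 0.0541). Dio3os, the noncoding RNA that starts 0.893 kb from Dio3 on the other strand, averaged 11.3 ± 5.11 CPM over WT libraries (SD, n = 3), 8.19 ± 0.859 CPM over OVE853 (n = 3) and 2.16 ± 1.27 CPM in OVE918 (n = 4). On the log2 scale OVE853 differed from WT by -0.46 (FDR = 0.495) and OVE918 by -2.38 (FDR = 0.00452), and between the lines the FDR was 0.0700.

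**Figure D4:**
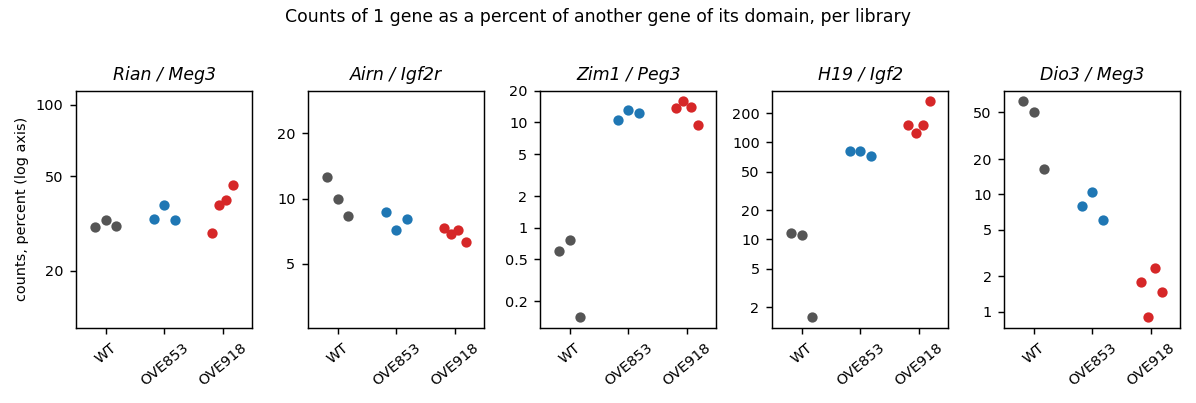
Counts of 1 gene as a percent of the counts of another gene of its cluster (vertical log axis) in each library, by group. The percent of Rian to Meg3 stays between 28.8% and 45.8% in all libraries, while that of Zim1 to Peg3 is below 1% in WT and at least 9.54% in the transgenic libraries.

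Outside these clusters the called genes were Grb10, Nap1l5 and Slc22a18, and all 3 were lower. Grb10, an adapter that restrains insulin and IGF1 receptor signalling, had 15.5, 15.5 and 21.6 CPM in WT, 7.52, 11.7 and 10.2 CPM in OVE853, and 7.32, 5.59, 5.54 and 6.55 CPM in OVE918. Both lines lay below WT in every library. Grb10 had a log2 fold change of -0.84 in OVE853 (standard error 0.20, FDR = 0.0171), under the fold minimum, and -1.49 in OVE918 (standard error 0.18, FDR = 0.000277). The direct difference between lines was -0.65 (standard error 0.19, FDR = 0.0951).

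Nap1l5, a nucleosome assembly protein gene that is transcribed mainly in the nervous system, had 10.6, 10.5 and 58.9 CPM in WT, 3.35, 3.71 and 2.18 CPM in OVE853, and 9.25, 2.64, 3.49 and 5.12 CPM in OVE918. WT replicate 3, in which the retinal neuron markers summed to 1199 CPM, was far above the other WT libraries, and OVE918 replicate 1, the transgenic library with the highest sum of those markers (196 CPM), was the highest transgenic one. The log2 fold change was -3.12 in OVE853 (standard error 0.77, FDR = 0.0285) and -2.39 in OVE918 (standard error 0.67, FDR = 0.0385). Without WT replicate 3 the OVE853 value was -1.78 (FDR = 0.0228) and the OVE918 value was -1.05 (FDR = 0.110), where the call was lost. It was also lost in OVE853 without any 1 OVE853 library (FDR of 0.0743 to 0.109) and in OVE918 without any 1 OVE853 library or OVE918 replicate 2, 3 or 4 (FDR of 0.0517 to 0.102).

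Slc22a18, a maternally expressed transporter gene of the Kcnq1ot1 cluster, had 4.29, 7.85 and 9.01 CPM in WT, 3.38, 3.59 and 3.30 CPM in OVE853, and 4.63, 4.13, 4.50 and 4.29 CPM in OVE918. WT replicate 1 lay within the range of OVE918 and just above OVE853. The log2 fold change was -1.04 in OVE853 (standard error 0.24, FDR = 0.0148) and -0.69 in OVE918 (standard error 0.22, FDR = 0.0485), and the OVE853 call was lost without WT replicate 3 (-0.83, FDR = 0.0470), WT replicate 2 (-0.97, FDR = 0.0428), OVE853 replicate 1 (-1.04, FDR = 0.0587) or OVE853 replicate 3 (-1.02, FDR = 0.0595). Kcnq1ot1 itself, the paternal noncoding RNA of that cluster, had 14.5 to 35.3 CPM in WT, 27.4 to 36.2 CPM in OVE853 and 14.3 to 27.9 CPM in OVE918 and was not called.

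Mest, a hydrolase gene of the fetal mesoderm, passed the FDR but not the fold minimum in both lines. Its level was 300, 223 and 170 CPM in WT, 117, 159 and 113 CPM in OVE853, and 103, 158, 106 and 113 CPM in OVE918, without overlap. Mest had log2 fold changes of -0.84 (standard error 0.23, FDR = 0.0339) and -0.94 (standard error 0.21, FDR = 0.0106), and without WT replicate 3 it passed both limits, at -1.02 (FDR = 0.0117) and -1.12 (FDR = 0.00284). Ndn, a neuronal growth suppressor of the MAGE family, had 132 to 184 CPM in WT and 104 to 110 CPM in OVE853, a log2 fold change of -0.47 (FDR = 0.0429) that passed the FDR alone. In OVE918 the same held for Sgce, a sarcoglycan (16.5 to 33.0 CPM in WT and 11.7 to 15.5 CPM in OVE918, log2 -0.82), for Gnas (1189 to 1358 CPM in WT and 1485 to 1911 CPM in OVE918, log2 0.37) and for Impact, a regulator of translation (46.6 to 84.8 CPM in WT and 30.5 to 43.8 CPM in OVE918, log2 -0.65). Without WT replicate 3, Ndn (-0.30, FDR = 0.120), Gnas (0.33, FDR = 0.104) and Impact (-0.32, FDR = 0.142) no longer passed the FDR. Counted by FDR alone, 12 of 21 genes passed in OVE853 and 15 of 21 in OVE918, beside 15.8% and 19% of all genes.

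The genes with the highest levels in WT were mostly among those that were not called. By FPKM, Nnat, a small membrane protein of the endoplasmic reticulum, led with 188 to 309 FPKM, and Gnas, the stimulatory G protein subunit, followed with 138 to 147 FPKM. Ndn (33.2 to 49.5 FPKM) and Mest (26.6 to 43.9 FPKM) overlapped in range, as did Peg13, Impact, Nap1l5 and Kcnq1ot1, which had lower means. Meg3 ranged from 13.3 to 59.1 FPKM because of WT replicate 3. In the transgenic lines Nnat had 395 to 517 and 479 to 704 CPM against 299 to 458 CPM in WT, with log2 fold changes of 0.16 (FDR = 0.586) and 0.46 (FDR = 0.112). Peg13 and Ppp1r9a had log2 fold changes between -0.42 and 0.19 in both lines and were not called.

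The other 14 genes stayed under the FPKM minimum. With filterByExpr, 31 of the 35 genes were tested, and 13 were called in OVE853 and 15 in OVE918, beside 6.89% and 8.79% of all 18058 genes tested that way. These counts include genes such as Rtl1 that reached the test only through transgenic libraries. Mirg and Peg12 also could not reach it on their WT libraries alone. Peg12, a gene of the FRAT family in the Snrpn cluster, had 0.492, 0.423 and 0.245 CPM in WT, 1.63, 1.30 and 1.97 CPM in OVE853, and 1.16, 2.09, 1.41 and 1.85 CPM in OVE918. It rose by log2 values of 2.09 in both lines (FDR = 0.00609 and 0.00277). Its WT libraries held 11, 11 and 7 counts, so that these values are partly tied to that filter. Plagl1, a zinc finger regulator of growth, fell from 7.56, 3.77 and 6.87 CPM in WT to between 2.25 and 2.90 CPM in OVE853 and between 1.85 and 2.97 CPM in OVE918, with log2 fold changes of -1.19 (FDR = 0.0221) and -1.27 (FDR = 0.0073). With WT replicate 3 left out, Peg12 and Plagl1 were still called in both lines in that fit. Peg10, Mkrn3, Zdbf2 and Snrpn were tested there and not called, and the counts of Snrpn are uncertain because it shares 216 exon bases with Snurf on the same strand. Asb4, Phlda2, Ascl2 and Magel2 had at most 18 counts in any library and were too low for either rule.

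By textbook parental copy, 5 of the 7 tested maternal genes (H19, Igf2r, Meg3, Rian and Zim1) were called higher in both lines, and Slc22a18 was called lower in OVE853. Of the 12 tested paternal genes, Airn and Peg3 were called higher and Nap1l5 lower in OVE853, and Peg3 was called higher and Dio3 and Nap1l5 lower in OVE918. Of all genes tested, 2.51% were called higher and 1.91% lower in OVE853, and 2.58% and 3.02% in OVE918, and no difference between the parental copies was tested. These counts describe the genes that passed the minimum level, of which H19 and Zim1 did so only through transgenic libraries. Nap1l5 passed it without any OVE853 library.

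A longer list held 50 further imprinted genes, of which 26 were tested. Of these edgeR called 1 in each line, Qpct lower in OVE853 and Gatm higher in OVE918, beside 4.42% and 5.6% of all genes. A further 3 in OVE853 and 7 in OVE918 passed the FDR but not the fold minimum, where 15.8% and 19% of all genes passed the FDR with or without that minimum. Qpct, an enzyme that modifies peptide ends, had 39.3 ± 17 CPM in WT (SD, n = 3) and 18.0 ± 0.973 CPM in OVE853 (n = 3), a log2 fold change of -1.13 (FDR = 0.0164). Gatm, an enzyme of creatine synthesis, had 2.12 ± 0.992 CPM in WT (n = 3) and 9.78 ± 3.43 CPM in OVE918 (n = 4), a log2 fold change of 2.19 (FDR = 0.00634). In WT it averaged 0.856 FPKM, beside 2.54 FPKM in OVE853 and 3.65 FPKM in OVE918. Gatm thus met the 2 FPKM minimum through transgenic libraries, and its higher value is partly tied to the filter. The genes that maintain imprints (19, among them the DNA methyltransferases, Zfp57 and Ctcf) had 12 tested members, of which edgeR called 0 in each line, with 4 and 1 at an unadjusted p under 0.05 and 0 called by DESeq2. The IGF receptors, their substrates and IGF2 RNA-binding proteins (8) had 7 tested members, of which edgeR called 0 in each line, with 4 and 0 at an unadjusted p under 0.05 and 0 called by DESeq2. Igf1r passed the FDR alone in OVE853 (log2 0.74, FDR = 0.0150). Igf2bp1, Igf2bp2 and Igf2bp3 had log2 fold changes of 1.68, 1.19 and 2.12 in OVE853 and 1.26, 1.03 and 1.83 in OVE918. Their WT libraries spread widely, and their lowest FDR was 0.114. Insr, Irs1 and Irs2 lay between -0.03 and 0.47.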

How the data were processed

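RNA-seq was analysed from 10 pooled libraries of explanted lens epithelium (3 WT, 3 OVE853, 4 OVE918). The authors deposited raw counts per gene, whole numbers without normalization. Per their methods and processing notes, paired reads were trimmed with cutadapt 5.2, aligned to mm39 with STAR 2.7.11b and counted by strand with featureCounts 2.0.8, and edgeR 4.6.3 was used. None of the columns belonged to other samples (0 columns). Reads that map to near-identical copies can be lost or split by such counting, and mRNA libraries do not measure mature miRNAs.

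Here the counts were fitted with edgeR 4.0.16 (R 4.3.3, limma 3.58.1): TMM factors, robust quasi-likelihood F test, 3 groups in 1 model, 3 comparisons, Benjamini-Hochberg FDR over all 11097 genes with at least 2 FPKM in 5 of 10 libraries. FPKM used exon lengths of GENCODE vM39 on GRCm39. Standard errors were derived from the F statistics. Scripts were tested on simulated data. Replicates are pools drawn at random from several litters, so that p-values measure the spread between pools. Libraries held 24073311 to 31908525 counts, so that genes well under 1 CPM carry large counting error.

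Genes on the list were named in full where called in any comparison, by level and fold where they passed the FDR alone, and otherwise by ranges. The genes and lists, and the neighbours within 500 kb, were chosen with earlier results of these data known. Other filters, DESeq2 1.42.0, glmTreat, blocks and leaving out each library were tried as alternatives. Leaving out WT replicate 3 or OVE918 replicate 4 with the same genes tested, and WT replicate 3 under filterByExpr, were chosen after seeing the data. Sequences came from RefSeq tables (GRCm38.p6), placed by exact match on GRCm39.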

Additional observations from a re-analysis of the deposited data

Results flagged for a closer look

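Among the 34 listed genes checked for a library apart in OVE918, 2 had 1 library beyond Dixon's 95% limit for 4 samples (0.829), a limit that chance passes in about 1 in 20 groups. Nnat had 704 CPM in OVE918 replicate 1 against 479 to 504 CPM in the other OVE918 libraries. Magel2, a neuronally expressed gene of the Snrpn cluster, had 0.428 CPM in OVE918 replicate 1, from 10 counts, and 0 in the other OVE918 libraries. The same library had the highest sum of retinal neuron markers in OVE918, 196 CPM, and the part of such cells in either value was not tested.

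Dio3 differed between the transgenic lines in the direct test, with a log2 fold change of -2.04 for OVE918 against OVE853, and 4 single libraries each decided that call.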

How the results depend on the processing

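The 28 fold changes of single listed genes gave 671 values under the alternatives. Of these, 607 kept their direction and stayed called or not called, 55 were no longer called, 9 became called and 0 changed sign. A call needs the FDR and the fold minimum together, so that a gene passing the FDR alone could lose it and still count as kept. Ndn in OVE853, and Gnas and Impact in OVE918, are such cases. Alternatives in which a gene was not tested gave no value for it. Of 19 calls, 6 held under every alternative run, namely H19, Peg3 and Zim1 in both lines. With 1 library left out, the number of listed genes called ranged from 5 to 9 in OVE853 (5 without OVE853 replicate 1), from 7 to 9 in OVE918 and from 0 to 2 between the lines. Tested against a fold of 2 (glmTreat), 3 were called in OVE853, 3 in OVE918 and 0 between the lines. With filterByExpr, 15 were called in OVE918, and with WT replicate 3 left out as well, 14 in OVE853, 15 in OVE918 and 2 between the lines, in fits that also test lower genes. By FDR with no minimum fold, 15 were called in OVE918. With only the 2 groups compared in the fit, 2 were called between the lines. The replicate block gave 8, 8 and 0 calls, with Dio3 between the lines at -1.99 (FDR = 0.0886). Deviations of same-numbered libraries correlated between -0.30 and 0.084 over 9 pairs, none over 0.1, so that the numbers do not pair the libraries. Libraries that share a second number, which may or may not mark a shared collection, correlated between -0.17 and 0.389 over 7 pairs, 2 of them over 0.1. Pairs of libraries that share neither number correlated between -0.399 and 0.296. With the second number as a block the counts were 9, 9 and 1, and the FDR limit was no longer passed by Mest (0.103) and Ndn (0.108) in OVE853 or by Gnas (0.0524) and Slc22a18 (0.0769) in OVE918. Unless the construction of the alternative shows it, the cause was not tested. Depth limits the genes with few counts in WT, among them Zim1, H19, Dlk1, Rtl1 and Mirg.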
